A study of Rattus norvegicus with 4 samples.

Results

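Phase II conjugating enzymes of rat liver were taken as the rows of the deposited gene table whose symbol begins with Ugt1, Ugt2, Sult1, Sult2, Gsta, Gstm, Gstp, Gstt, Gsto, Gstk or Mgst. The rule found 37 of 32545 rows, of which 5 are glucuronosyltransferases, 7 are sulfotransferases and 25 are glutathione transferases. Liver messenger RNA was sequenced in 4 libraries. Sleep restriction 1 and 2 came from rats put under forced activity with restricted sleep, and forced activity 1 and 2 came from rats put under forced activity alone, so that forced activity is common to all 4. Strain, sex, age and the length of the protocol are not given in the sources used here, nor is it stated that each library is a separate animal, so p-values measure only the spread between these libraries.

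Conjugation makes fat-soluble drugs, hormones and waste products water-soluble so that they can leave in bile or urine. Glucuronosyltransferases sit in the endoplasmic reticulum and transfer glucuronic acid from UDP-glucuronic acid. Sulfotransferases of the cytosol transfer sulfate from the donor PAPS, and glutathione transferases join reactive electrophiles to glutathione. Hepatocytes hold large amounts of many of these enzymes, and their genes lie in clusters of close copies.

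The deposited totals lay between 508203 and 520276 counts per library. From the values, the replicate 1 pair (sleep restriction 1 and forced activity 1) appears to have been drawn down from much deeper sequencing than the replicate 2 pair, so differences within each pair are given beside the pooled ones. Levels are given as counts per 1000000 counts of the library (CPM), scaled by TMM factors. The 6 hepatocyte markers summed to 190461 and 198866 CPM under sleep restriction and to 187041 and 188394 CPM under forced activity. Most of each sum is Alb (128454 and 137764 against 118674 and 131566 CPM). Of the 6, Apoa1 and Ttr were lower in both sleep restriction libraries, against 15.3% of all tested genes, and 0 were higher in both, against 17.2%. Sinusoidal endothelial markers, 7 of 8 found in the table and none of these at 0 in all libraries, summed to 355 and 204 CPM in sleep restriction 1 and 2, against 120 and 379 CPM in forced activity 1 and 2. Lymphocyte markers, all 5 found, summed to 70.4 and 87.3 CPM under sleep restriction and to 193 and 196 CPM under forced activity. Nearly all of that sum is from the immunoglobulin rows Igkc and Ighm, while Cd3e, Cd79a and Cd8a lay under the filter with at most 1 count in a library, and Cd79a had 0.5 and 1 counts under sleep restriction against 0.1 and 0 under forced activity. In whole tissue, fewer cells of a type and less RNA per cell cannot be told apart.

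Of the 37 members, 24 had enough counts to be tested, 13 lay under the gene filter and 5 of those 13 had 0 counts in every library. None of the 24 passed the test between the groups. In edgeR's quasi-likelihood test with Benjamini-Hochberg adjustment over 4986 genes, each tested member had an adjusted p of 0.999, and 0.0201% of all tested genes (1 gene, lower) were called at an adjusted p under 0.05. DESeq2 also called 0 members. At an unadjusted p under 0.05 there were 3 members in edgeR (Gsta5, Gsta2 and Ugt2b15), which is 12.5% of those tested against 4.19% of all genes. DESeq2 had 1 member there, and 40 of all 4986 genes. Both sleep restriction libraries lay above both forced activity libraries for 5 members, against 17.2% of all tested genes, and below both for another 5, against 15.3%. Each count of 5 is 20.8% of the 24 members. The difference had the same sign within both replicate pairs for 14 of the 24, against 56.1% of all tested genes. The members that passed the filter had log2 changes of sleep restriction over forced activity between -0.50 and 0.82, and 22 of the 24 lay within 0.5 of 0, as did 4492 of the 4986 genes tested. Fold changes are mainly given as log2 values. For a single gene in edgeR the value is shrunken by a prior count of 2 and has a standard error (SE). Ratios of summed CPM are plain log2 ratios, with no prior count and no SE.

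**Figure D1:**
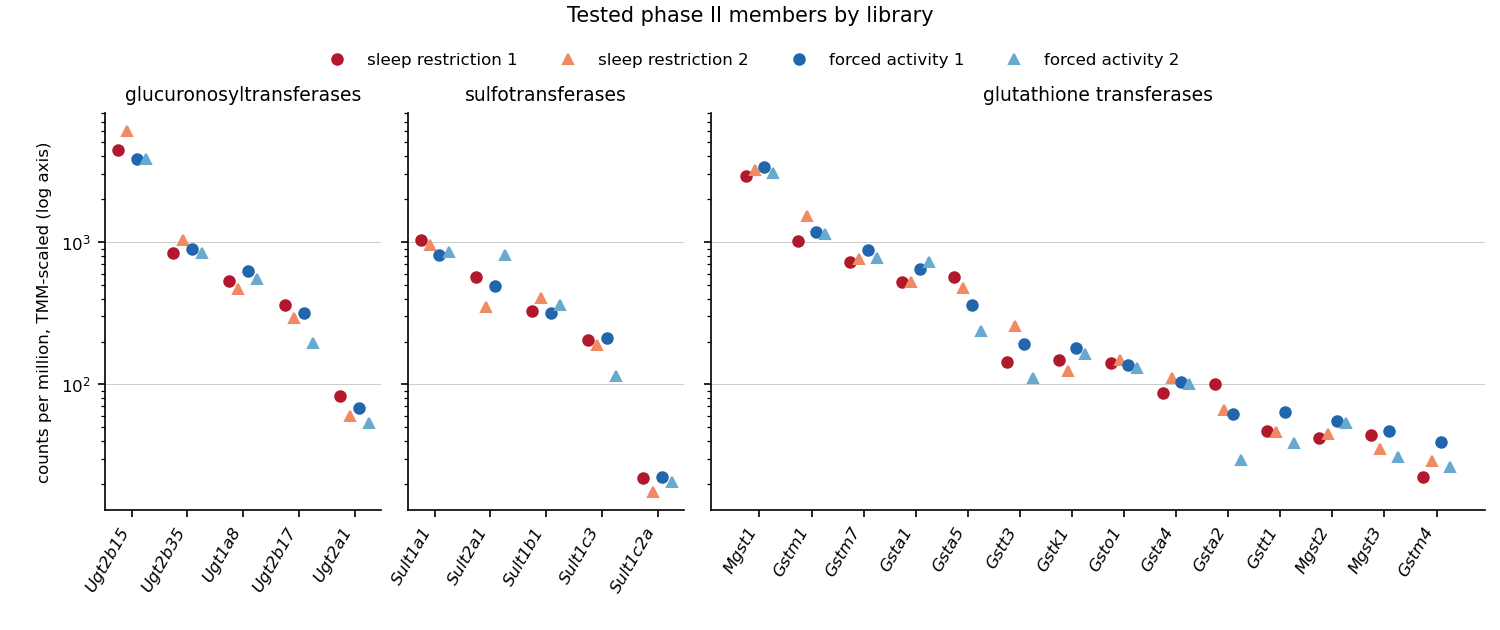
TMM-scaled CPM (log axis) of the 24 tested members in each library, grouped by enzyme class and ordered by their mean; red and orange points are sleep restriction 1 and 2, and dark and light blue points are forced activity 1 and 2. The 2 groups overlap for 14 members. Both sleep restriction points lie above both forced activity points for 5 (Gsta5, Gsta2, Ugt2b15, Sult1a1 and Gsto1), or 20.8%, against 17.2% of all tested genes. They lie below both for another 5 (Ugt1a8, Gstm7, Gsta1, Gstk1 and Mgst2), against 15.3% of all tested genes. Levels are not corrected for transcript length and cannot be compared between genes.

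The glucuronosyltransferases were all tested, and 4 of the 5 rows had a log2 change above 0. Their median was 0.20, against 0.0031 over all genes tested. Ugt2b15 had the most counts of any member. It measured 4452 and 5979 CPM in sleep restriction 1 and 2 and 3820 and 3844 CPM in forced activity 1 and 2. Both sleep restriction libraries were above both forced activity libraries, but they differed from each other more than the groups did, with means of 5216 ± 1079 CPM and 3832 ± 17.1 CPM (SD, 2 libraries each). The log2 change was 0.44 (SE 0.20, 95% interval 0.00052 to 0.89), made of 0.22 within the replicate 1 pair and 0.64 within the replicate 2 pair. It was 0.21 without sleep restriction 2.

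The row listed as Ugt2b17 measured 363 and 295 CPM under sleep restriction and 316 and 197 CPM under forced activity. The groups overlapped, and the log2 change of 0.35 (SE 0.25) was positive within both pairs, at 0.20 and 0.58. With 1 library left out it ran from 0.045 (without forced activity 2) to 0.73. Ugt2b35 had 840 and 1026 CPM under sleep restriction and 894 and 840 CPM under forced activity, with a log2 change of 0.11 (SE 0.20) whose sign differed between the pairs. UGT2B enzymes conjugate steroids, bile acids and many drugs. Ugt2a1, best known from the olfactory epithelium, had 82.4 and 60.1 CPM under sleep restriction and 68.6 and 53.1 CPM under forced activity (0.20, SE 0.25), and its groups overlapped as well.

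Ugt1a8 was the one row of the Ugt1 locus and went the other way. It measured 536 and 466 CPM in the sleep restriction libraries against 621 and 549 CPM in the forced activity libraries. Both sleep restriction values were the lower ones, and the log2 change of -0.23 (SE 0.20, 95% interval -0.66 to 0.21) was nearly equal within the replicate 1 pair (-0.21) and the replicate 2 pair (-0.24). This row, on chr9:95161157-95302822 of rn6, spans 142 kb. The RefSeq table, which is of the build GRCr8, lists 8 protein coding Ugt1a genes in the rat, and all 8 end at the same base, since alternative first exons are joined to shared later ones. The bilirubin-conjugating form Ugt1a1 is among them, so the row cannot be read as 1 isoform.

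The Ugt2 rows share ground too. Ugt2a1 is listed on chr14:22192970-22619968, an interval of 427 kb that encloses the listed intervals of Ugt2b15 (chr14:22375955-22534720) and Ugt2b35 (chr14:22553650-22591461). The Ugt2a1, Ugt2b15 and Ugt2b35 rows held 136.1, 9341 and 1857 counts over the 4 libraries. RefSeq names 9 protein coding Ugt2b genes on chromosome 14 against the 3 Ugt2b rows under the rule here, and it gives Ugt2b17 as an older symbol of both Ugt2b15 and Ugt2b1. How reads of close copies were divided is therefore uncertain. A sum over the 4 Ugt2 rows does not depend on how reads were divided among them, and it was 5738 and 7360 CPM under sleep restriction and 5098 and 4933 CPM under forced activity. That sum was higher in both sleep restriction libraries, and the gap within the replicate 2 pair (0.58 on the log2 scale) exceeded that within the replicate 1 pair (0.17).

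**Figure D2:**
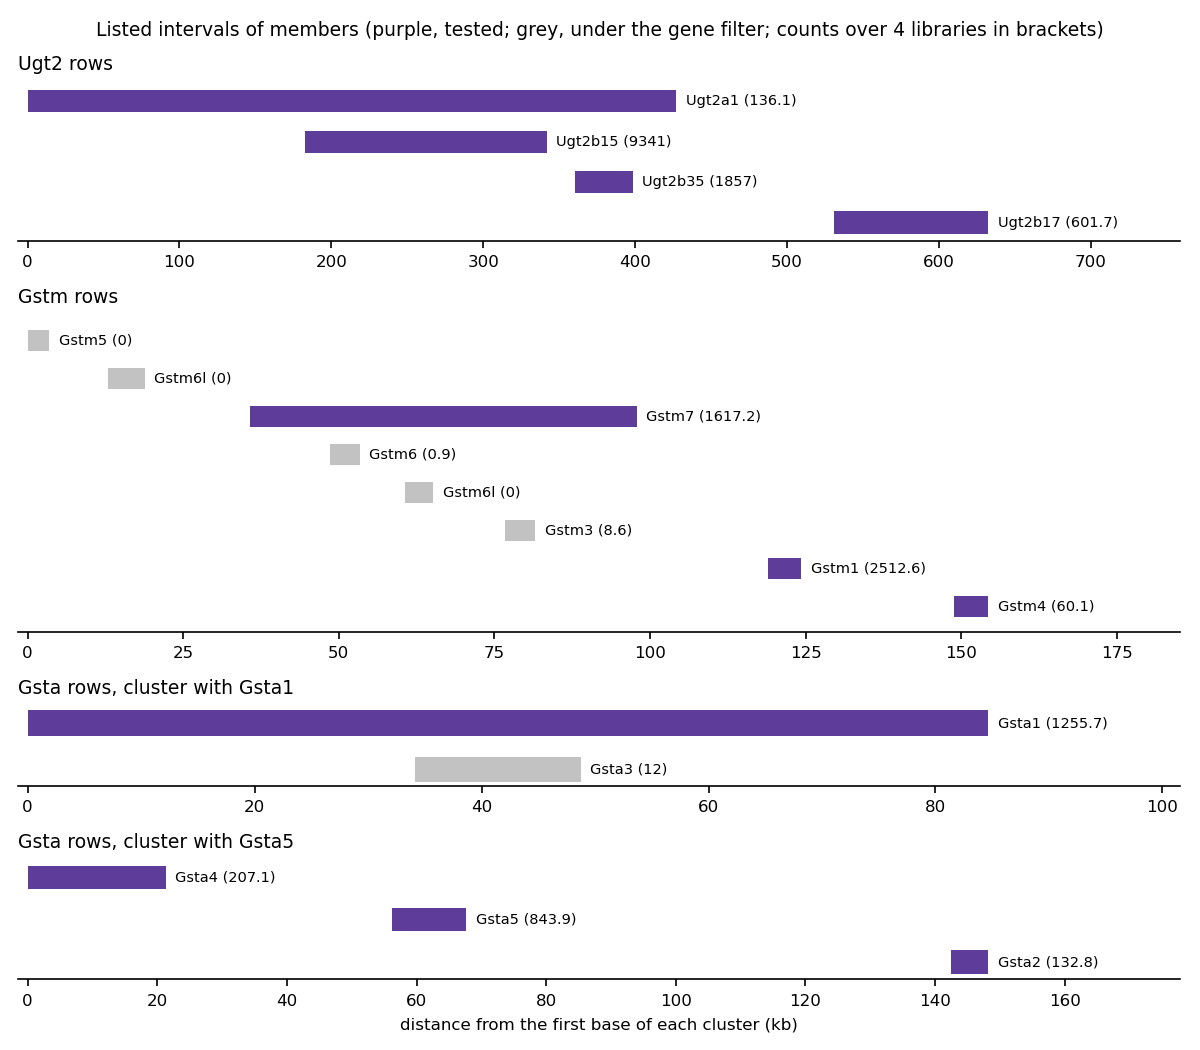
Listed intervals of the Ugt2, Gstm and Gsta rows as distance in kb from the first base of each cluster, with purple for tested rows, grey for rows under the gene filter, and the counts summed over the 4 libraries in brackets. The Ugt2a1 interval encloses those of Ugt2b15 and Ugt2b35, that of Gstm7 encloses Gstm6, a Gstm6l row and Gstm3, and that of Gsta1 encloses Gsta3.

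Among the sulfotransferases 5 of 7 rows were tested, with log2 changes between -0.50 and 0.28 and a median of 0.10. Sult1a1, the main phenol sulfotransferase, measured 1026 and 956 CPM under sleep restriction and 813 and 845 CPM under forced activity. All of its sleep restriction values lay above all of its forced activity values, with a log2 change of 0.26 (SE 0.19, 95% interval -0.16 to 0.67) and values of 0.33 and 0.18 within the replicate 1 and replicate 2 pairs. Sult1b1, which sulfates thyroid hormones, had 325 and 405 CPM under sleep restriction and 319 and 361 CPM under forced activity. Its groups overlapped, with a log2 change of 0.10 (SE 0.21).

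Sult1c3 measured 205 and 190 CPM in the sleep restriction libraries and 211 and 115 CPM in the forced activity libraries. Forced activity 2 alone was low, so the log2 change of 0.28 (SE 0.27) came to -0.04 within the replicate 1 pair and 0.71 within the replicate 2 pair. Sult1c2a had 21.9 and 17.5 CPM under sleep restriction and 22.4 and 20.6 CPM under forced activity (-0.11, SE 0.31), and an older name of this gene, RGD1562392, has a row of its own at the same place. Summed over the 5 Sult1 rows, the level was 1578 and 1569 CPM under sleep restriction and 1365 and 1342 CPM under forced activity, or 1574 ± 6.29 and 1354 ± 16.4 CPM (SD, 2 libraries each). The sums differed by 0.22 on the log2 scale, by 0.21 within the replicate 1 pair and 0.23 within the replicate 2 pair, and kept between 0.20 and 0.23 with any 1 library left out. The difference was 0.20 with upper-quartile factors or library totals alone and 0.19 without a gene filter. An SD of 2 libraries is itself poorly known, and with 2 libraries a group no test was made of this sum. Over all 7 sulfotransferase rows the sums were 2150 and 1922 CPM under sleep restriction and 1857 and 2154 CPM under forced activity. Their log2 ratio was 0.02, with 0.21 within the replicate 1 pair and -0.16 within the replicate 2 pair.

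Sult2a1, the hydroxysteroid and bile acid sulfotransferase, had the lowest log2 change of all tested members and the widest disagreement between the pairs in this class. It measured 570 and 351 CPM in sleep restriction 1 and 2 and 490 and 812 CPM in forced activity 1 and 2. The highest and the second lowest value both belong to forced activity, and the log2 change of -0.50 (SE 0.29, 95% interval -1.16 to 0.16) was 0.21 within the replicate 1 pair and -1.20 within the replicate 2 pair. It came to -0.89 without sleep restriction 1, -0.20 without sleep restriction 2, -0.81 without forced activity 1 and -0.10 without forced activity 2. The sum of the 4 red cell markers had the same order of libraries, as did Hba1 and Hba2 but not Hbb and Alas2. It was 1111 and 648 CPM in sleep restriction 1 and 2 and 818 and 1689 CPM in forced activity 1 and 2, and none of the 4 was at 0. Their part in the result was not tested. The Sult2a1 row runs over 528 kb (chr1:76252329-76780230), and RefSeq names 3 protein coding Sult2a genes on that chromosome, so it may hold reads of several. Of the 2 rows under the filter, Sult2b1, which sulfates cholesterol, had at most 1 count in a library and Sult1d1 at most 0.1.

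**Figure D3:**
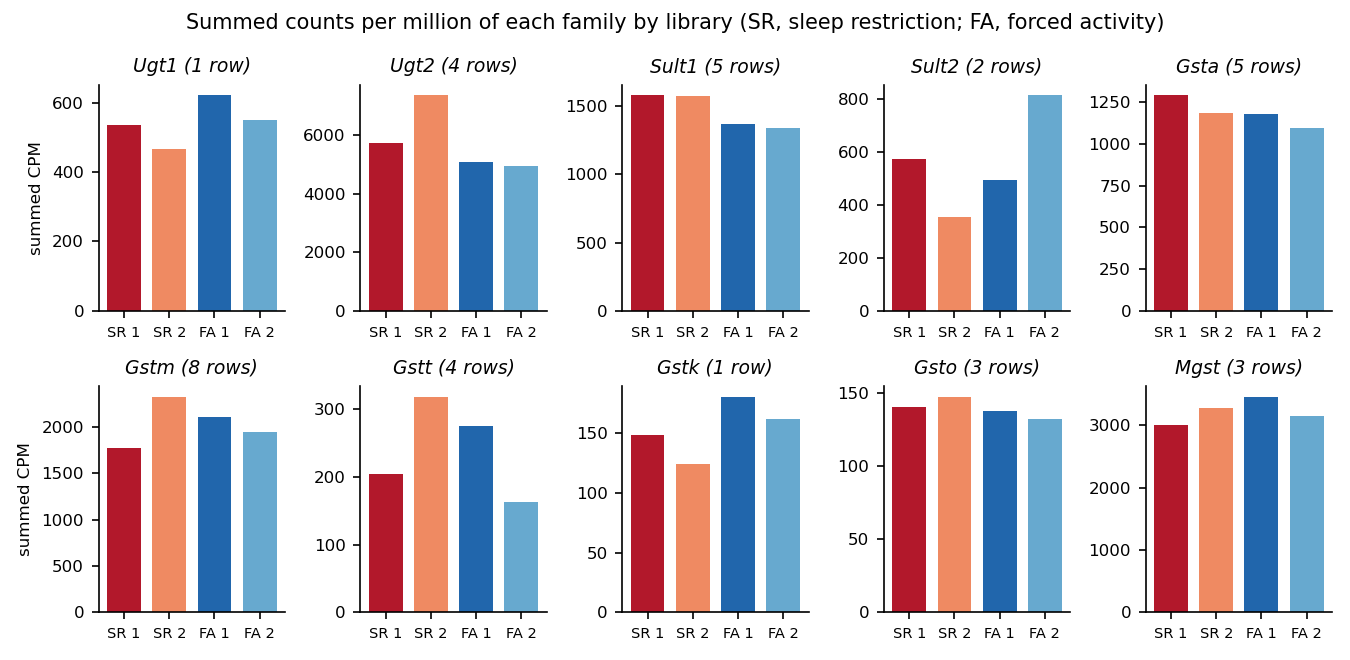
Summed CPM of the rows of each family in sleep restriction 1 and 2 (SR, red and orange) and forced activity 1 and 2 (FA, dark and light blue), on linear axes from 0 that differ between panels. The Ugt2 and Sult1 sums are higher in both sleep restriction libraries (5738 and 7360 against 5098 and 4933 CPM, and 1578 and 1569 against 1365 and 1342 CPM). Gsta and Gsto sums are also higher in both, and those of Ugt1 and Gstk are lower in both. The Sult2, Gstm, Gstt and Mgst sums go opposite ways within the replicate pairs. The single Gstp row, under the gene filter, is not drawn.

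Of the 25 glutathione transferase rows 14 were tested, and the log2 change was above 0 for 6 and below 0 for 8 of these. Their median was -0.05. Summed over all 25 rows the log2 ratio was -0.0074, with -0.16 within the replicate 1 pair and 0.14 within the replicate 2 pair. The alpha class, whose enzymes also reduce lipid peroxides, held the members that stood farthest from 0. Gsta5 measured 569 and 473 CPM under sleep restriction and 359 and 238 CPM under forced activity. Both sleep restriction values lay above both forced activity values, and the means were 521 ± 67.9 and 299 ± 85.9 CPM (SD, 2 libraries each). The log2 change was 0.80 (SE 0.24, 95% interval 0.28 to 1.32), which is 1.74-fold, and it was 0.66 and 0.98 within the replicate 1 and replicate 2 pairs. It ranked at place 28 of 4986 by unadjusted p and ran from 0.53 to 1.12 with 1 library left out.

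Its neighbour Gsta2 differed in the same direction at a lower count. It measured 101 and 66.0 CPM under sleep restriction and 62.4 and 29.3 CPM under forced activity, and the lowest sleep restriction value was only just above the highest forced activity value. The log2 change was 0.82 (SE 0.33, 95% interval 0.084 to 1.55), with 0.66 and 1.07 within the replicate 1 and replicate 2 pairs and 0.39 to 1.38 with 1 library left out. Gsta5 and Gsta2 lie on chromosome 8 (chr8:85553734-85565179 and chr8:85640055-85645718), and their listed intervals do not overlap. Summed, they held 345.8 and 278 counts under sleep restriction and 209 and 143.9 counts under forced activity. Igkc and Ighm differ between the groups in the opposite direction, as given above, and their part in the result was not tested.

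The third alpha gene of that cluster did not share this pattern. Gsta4, whose product conjugates the lipid peroxidation product 4-hydroxynonenal, had 87.2 and 111 CPM under sleep restriction and 103 and 100 CPM under forced activity. Its log2 change of -0.04 (SE 0.22, 95% interval -0.52 to 0.45) had opposite signs within the pairs. Gsta1, in the cluster on chromosome 9 (chr9:27368272-27452902), had the lowest log2 change of the glutathione transferases. It measured 526 and 528 CPM under sleep restriction and 647 and 727 CPM under forced activity. Both sleep restriction libraries were lower, with a log2 change of -0.38 (SE 0.19, 95% interval -0.81 to 0.04) and values of -0.30 and -0.46 within the pairs. Gsta3, whose listed interval lies inside that of Gsta1, had 4.3 and 3 counts under sleep restriction and 2.7 and 2 under forced activity and lay under the filter.

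The sum over the 5 Gsta rows was 1292 and 1183 CPM under sleep restriction and 1178 and 1098 CPM under forced activity. Both sleep restriction sums lay above both forced activity sums, with a difference of 0.12 on the log2 scale. Gsta2 and Gsta5 together averaged 605 CPM under sleep restriction and 345 CPM under forced activity, while Gsta1 and Gsta3 together averaged 534 CPM under sleep restriction and 692 CPM under forced activity. Alpha class symbols have moved between genes: RefSeq gives Gsta2 as an older symbol of Gsta5, Gsta1 as an older symbol of Gsta2, and Gsta3 as an older symbol of Gsta1. It also gives Gsta5 as an older symbol of both Gsta1 and Gsta3, the genes of the chromosome 9 cluster. The values here are therefore tied to the Ensembl rows ENSRNOG00000000201.7 (Gsta5), ENSRNOG00000029861.5 (Gsta2) and ENSRNOG00000013484.5 (Gsta1), and not to a protein subunit name.

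The promoter windows of the members with an unadjusted p under 0.05, Gsta5, Gsta2 and Ugt2b15, are shown because those members, chosen after their values were seen, stood highest. Each window runs from 250 bases before to 50 bases after the start site in the RefSeq table (build GRCr8), is written 5′ to 3′ on the gene's strand, and was matched by symbol, as 30 of the 37 rows could be. The start site used for Gsta5 lies 2586 bases inside that gene's RefSeq interval. The windows are chr8:87988104-87988403 (plus strand), chr8:88077043-88077342 (minus strand) and chr14:21122616-21122915 (plus strand). Capitals mark matches to any of 5 motifs searched on both strands.
Gsta5: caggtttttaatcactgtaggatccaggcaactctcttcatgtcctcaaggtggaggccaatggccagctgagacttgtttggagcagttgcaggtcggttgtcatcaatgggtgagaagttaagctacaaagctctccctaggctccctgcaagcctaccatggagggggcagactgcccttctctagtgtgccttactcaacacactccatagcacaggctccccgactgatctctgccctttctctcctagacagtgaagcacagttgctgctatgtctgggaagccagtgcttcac
Gsta2: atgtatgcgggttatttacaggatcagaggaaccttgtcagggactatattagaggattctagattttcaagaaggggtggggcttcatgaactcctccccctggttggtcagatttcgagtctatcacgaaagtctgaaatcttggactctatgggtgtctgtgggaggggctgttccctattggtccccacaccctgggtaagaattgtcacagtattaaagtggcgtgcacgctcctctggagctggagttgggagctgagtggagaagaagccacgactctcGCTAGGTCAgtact
Ugt2b15: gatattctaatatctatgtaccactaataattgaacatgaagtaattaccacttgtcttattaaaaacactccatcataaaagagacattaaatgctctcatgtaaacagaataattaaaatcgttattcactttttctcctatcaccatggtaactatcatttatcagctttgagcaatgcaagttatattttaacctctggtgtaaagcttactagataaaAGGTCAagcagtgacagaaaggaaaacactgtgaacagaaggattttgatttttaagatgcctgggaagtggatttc

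The motifs were the antioxidant response element core TGACNNNGC, the HNF4 element CAAAGTCCA, the HNF1 motif GTTAAT, the nuclear receptor motif AGGTCA and the TATA box TATAAA. They occur in 12.1%, 0.391%, 7.45%, 16.2% and 14.2%, in that order, of the 33469 promoter windows of the same length. Gsta2 held 1 antioxidant response element core, on the opposite strand, whose first base lies 36 bases after the start site, and a nuclear receptor motif at 39 bases after the start site that overlaps it. Ugt2b15 held 1 nuclear receptor motif, at -27 from the start site, and Gsta5 held none of the 5. A match of letters is not evidence of binding, and no match says only that these letters are not in this window.

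**Figure D4:**
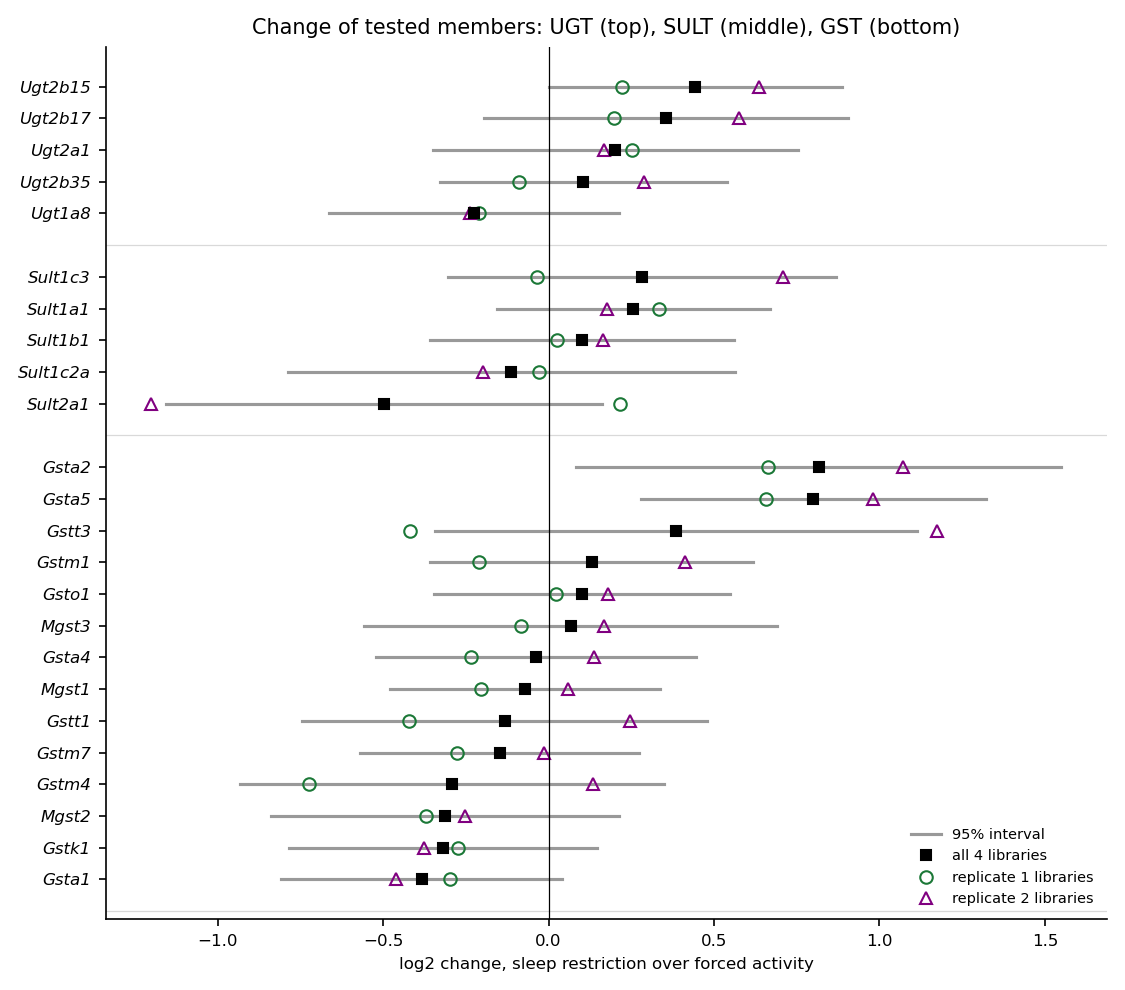
Log2 change of sleep restriction over forced activity for the 24 tested members, with the glucuronosyltransferases (UGT) at the top, the sulfotransferases (SULT) in the middle and the glutathione transferases (GST) at the bottom. Black squares with grey 95% intervals come from all 4 libraries, green circles from the replicate 1 libraries and purple triangles from the replicate 2 libraries. Gsta2 and Gsta5 lie right of 0 within both pairs, whereas Sult2a1 (0.21 and -1.20) and Gstt3 (-0.42 and 1.17) lie on opposite sides.

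The mu class, another large group of cytosolic transferases, showed no common direction. Gstm1 measured 1017 and 1527 CPM under sleep restriction and 1177 and 1147 CPM under forced activity. The sleep restriction libraries lay on either side of the forced activity ones, with a log2 change of 0.13 (SE 0.22, 95% interval -0.36 to 0.62). Gstm7 had 725 and 762 CPM under sleep restriction and 880 and 769 CPM under forced activity (-0.15, SE 0.19), and within the replicate 2 pair the difference was -0.01. Gstm4 had 22.3 and 29.1 CPM under sleep restriction and 39.4 and 26.2 CPM under forced activity (-0.29, SE 0.29), with opposite signs within the pairs. The Gstm7 interval of 62.2 kb encloses the rows of Gstm6, 1 of the Gstm6l rows and Gstm3, which held 0.9, 0 and 8.6 counts over all libraries against 1617.2 for Gstm7. Summed over the 8 Gstm rows, the level was 1769 and 2322 CPM under sleep restriction and 2102 and 1948 CPM under forced activity.

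The theta class, which handles small halogenated compounds, split between the pairs. Gstt3 measured 144 and 256 CPM under sleep restriction and 194 and 111 CPM under forced activity. The highest value was that of sleep restriction 2 and the lowest that of forced activity 2, so the log2 change of 0.39 (SE 0.32, 95% interval -0.34 to 1.11) was -0.42 within the replicate 1 pair and 1.17 within the replicate 2 pair. Gstt1 had 47.1 and 46.6 CPM under sleep restriction and 64.4 and 38.6 CPM under forced activity (-0.13, SE 0.28), with opposite signs in the pairs as well. Gstt2, under the filter, had 6.6 and 8 counts under sleep restriction and 8.3 and 6.9 under forced activity. Leaving out 1 library took the log2 change of Gstt3 to between -0.087 and 0.82.

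The membrane-bound transferases had 3 rows, all tested. Mgst1, which sits in the endoplasmic reticulum and the outer mitochondrial membrane, measured 2915 and 3195 CPM under sleep restriction and 3357 and 3065 CPM under forced activity. The groups overlapped, and the log2 change of -0.07 (SE 0.19) had a 95% interval of -0.48 to 0.34. Mgst2, a relative of leukotriene C4 synthase, had 42.1 and 44.6 CPM under sleep restriction and 55.5 and 53.9 CPM under forced activity. Its libraries lay close together within each group and both sleep restriction values were lower, with a log2 change of -0.31 (SE 0.24, 95% interval -0.84 to 0.21) and values of -0.37 and -0.25 within the pairs. Mgst3 had 44.4 and 34.9 CPM under sleep restriction and 47.2 and 30.6 CPM under forced activity (0.07, SE 0.28), and its groups overlapped.

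The remaining classes have few rows. Gstk1, the kappa enzyme of mitochondria and peroxisomes, measured 149 and 124 CPM under sleep restriction and 181 and 162 CPM under forced activity. Both sleep restriction values were lower, with a log2 change of -0.32 (SE 0.21, 95% interval -0.78 to 0.15) and values of -0.27 and -0.38 within the pairs. Gsto1, an omega enzyme that acts as a thiol transferase, had 140 and 147 CPM under sleep restriction and 138 and 130 CPM under forced activity. These values did not overlap but lay close together, with a log2 change of 0.10 (SE 0.20).

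Gstp1, the pi class enzyme that adult rat hepatocytes hardly express, lay under the filter. It had 9.3 and 2 counts in sleep restriction 1 and 2 and 5.8 and 11.3 counts in forced activity 1 and 2. It was high in the same libraries, forced activity 2 and sleep restriction 1, in which the summed endothelial and red cell markers were high. The 8 Kupffer cell and macrophage markers, all tested, also summed highest in those libraries. Their sums were 687 and 427 CPM in sleep restriction 1 and 2 and 408 and 539 CPM in forced activity 1 and 2. Gstp1 is also known from bile duct cells. The 6 cholangiocyte markers were all under the filter and summed to 26.9 and 23.3 CPM under sleep restriction and 35.5 and 28.8 CPM under forced activity, with none at 0 in every library. The part of any of these cell types in the Gstp1 counts was not tested. The rows at 0 in every library were Gstm5, both Gstm6l rows, Gstt4 and 1 of the 2 Gsto2 rows, and the other Gsto2 row had 1.5 counts in all.

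The donors and partners of conjugation were measured in the same fit and are given in deposited counts, in lists chosen with earlier results of these data known, and no listed gene passed the test in either direction. Of the UDP-glucuronic acid list 7 genes were tested, 4 positive and 3 negative, with a median log2 change of 0.0030. Ugdh, which makes UDP-glucuronic acid, had 74 and 102 counts under sleep restriction and 94 and 72.7 under forced activity (0.07, SE 0.24). Slc35b1, placed in the nucleotide sugar carrier family, had 13.4 and 15 counts under sleep restriction and 15.7 and 29.4 under forced activity (-0.61, SE 0.30). Ugp2, which makes UDP-glucose, had 289.3 and 558 counts under sleep restriction and 349 and 255.5 under forced activity (0.48, SE 0.31), with opposite signs within the pairs.

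For sulfate donation 4 of 8 listed genes were tested, with a median of 0.13. Papss2, the liver's PAPS synthase, had 106.1 and 128 counts under sleep restriction and 118.9 and 135.3 under forced activity (-0.11, SE 0.21). The 2 genes with the smallest p here were Bpnt1 (0.28, SE 0.30) and Suox (0.17, SE 0.23). Glutathione synthesis and turnover had 10 tested genes, 8 positive and 2 negative, with a median of 0.16. Gclc, the catalytic subunit of the rate-limiting ligase, had 99.3 and 103 counts under sleep restriction and 64.2 and 111.8 under forced activity (0.21, SE 0.24). Gclm, the modifier subunit, had 0.24 (SE 0.22) and Anpep, a peptidase of the turnover pathway, had 0.24 (SE 0.21).

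A list of transcription factors that regulate these genes, their partners and the cytochrome P450 reductase Por had 16 tested genes. Of these 9 were positive and 7 negative, with a median of 0.11. Hnf4a, a main hepatocyte factor, had 328.9 and 406 counts under sleep restriction and 207.4 and 247.7 under forced activity. Both sleep restriction libraries were higher, and the log2 change of 0.69 (SE 0.20) was 0.60 and 0.77 within the replicate 1 and replicate 2 pairs. Ahr, the aryl hydrocarbon receptor, had 18.1 and 16 counts under sleep restriction and 25.9 and 28.3 under forced activity (-0.61, SE 0.25). Nr1i3 and Nr1i2, which encode the receptors CAR and PXR, had -0.59 (SE 0.28) and -0.45 (SE 0.22). Of the 16 genes, 3 (Ahr, Nr1i3 and Nr1i2) were lower in both sleep restriction libraries, against 15.3% of all tested genes. Another 3, Hnf4a among them, were higher in both, against 17.2%. Nfe2l2, which encodes NRF2, the factor that acts at antioxidant response elements, had 41.7 and 82 counts under sleep restriction and 35.9 and 45 under forced activity (0.60, SE 0.30), and its groups overlapped.

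NRF2 target genes other than the members had values on both sides of 0. Of 13 tested, 8 were positive and 5 negative with a median of 0.05, and Akr7a3 (0.69, SE 0.41) and Me1 (0.49, SE 0.29) had the smallest p. Nqo1, a classical target, lay under the filter with 3.6 and 6 counts under sleep restriction and 5.3 and 3.4 under forced activity. Cytochromes that answer to AHR, CAR and PXR had 7 positive and 2 negative values among 9 tested, with a median of 0.45. Both sleep restriction libraries were higher for 4 of these 9, against 17.2% of all tested genes. Among the 4 were Cyp3a18 (0.69, SE 0.26) and Cyp3a2 (0.69, SE 0.27), and Cyp3a rows are close copies of each other. The groups overlapped for Cyp2b1 and Cyp2b2, each with opposite signs within the pairs.

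Transporters that carry conjugates and their substrates had 11 tested genes and a median of 0.08. Abcc2, which exports conjugates into bile, had 153.3 and 163 counts under sleep restriction and 179.7 and 117.7 under forced activity (0.08, SE 0.25). Abcb11, the bile salt export pump, had 227.2 and 232 counts under sleep restriction and 171.9 and 164.5 under forced activity. Its groups did not overlap, with a log2 change of 0.45 (SE 0.20), and Abcc6 had -0.35 (SE 0.21). Other conjugating enzymes outside the rule were split evenly, 8 positive and 8 negative of 16, with a median of -0.0031. The smallest p there belonged to Gnmt, a glycine methyltransferase, at -0.31 (SE 0.22) and to Glyatl2 at 0.29 (SE 0.21). Hydrolases had 7 tested genes and a median of 0.0030, led by the steroid sulfatase Sts at -0.27 (SE 0.26) and the epoxide hydrolase Ephx1 at -0.20 (SE 0.23).

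**Figure D5:**
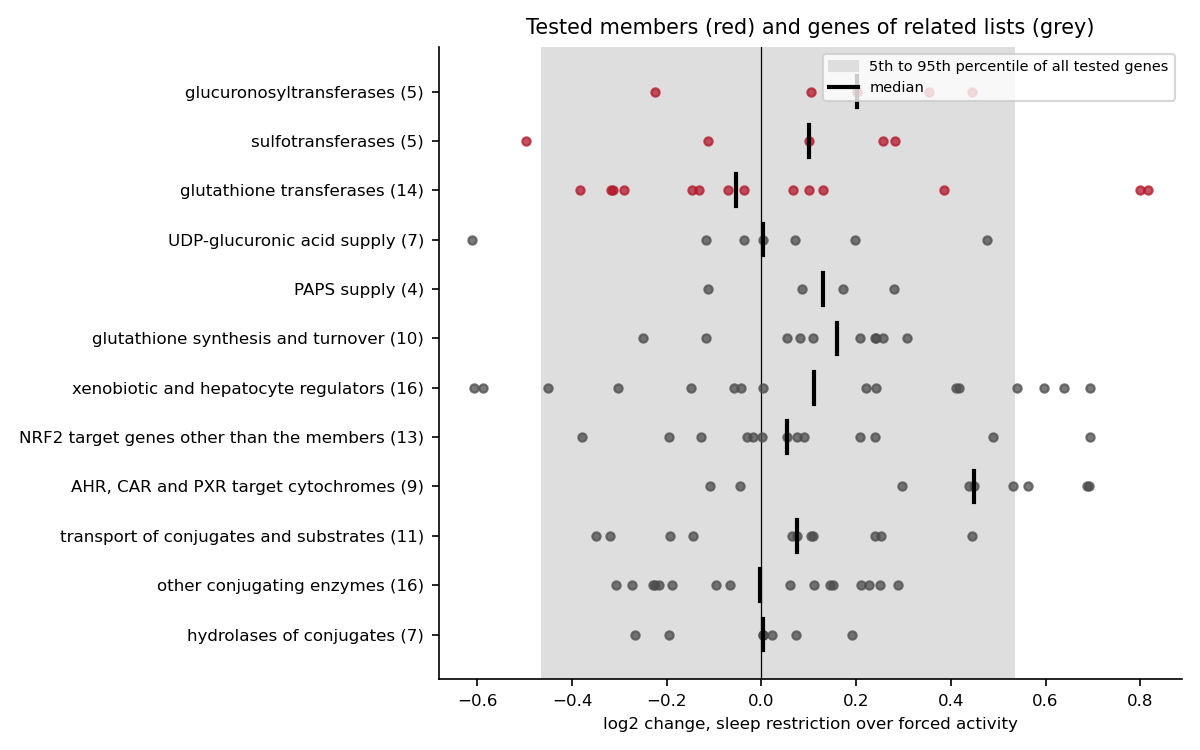
Log2 change of sleep restriction over forced activity for the tested members of each enzyme class (red) and the tested genes of the related lists (grey), 1 point per gene, with black bars at the medians and the number of genes in brackets. The shaded band spans the 5th to the 95th percentile of all 4986 tested genes, -0.46 to 0.53. Gsta5 and Gsta2 (0.80 and 0.82) lie beyond the band's upper edge, and Sult2a1 (-0.50) lies beyond its lower edge.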

How the data were processed

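What the authors deposited is a single table of estimated counts, 1 row per Ensembl gene, with symbols and intervals. Per the submitters' processing notes the build is rn6, and CASAVA and STAR 2.4.1d are named with no role or order. No source used here names a counting program. The table's own name speaks of sense strand and of an average over 10, and the values look like reads drawn down to equal totals. By maximum likelihood each draw kept 0.06 of the reads of sleep restriction 1, and fractions of 0.01 to 0.08 fitted nearly as well. For forced activity 1 the estimate was 0.04, with a range of 0.01 to 0.06, and for forced activity 2 it was 0.6. The lowest fraction tried was 0.01, so the lower ends of these ranges are not known. All 32545 values of each library are multiples of 0.1, and 32544 of sleep restriction 2 are whole, so it was taken as undrawn.

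The rounded counts went into edgeR 4.0.16 under R 4.3.3 (TMM factors from 0.975 to 1.03, filterByExpr with a minimum count of 10, robust quasi-likelihood, Benjamini-Hochberg over all genes kept). CPM are deposited counts per 1e6 after TMM scaling. The SE is the size of the change over the root of F, and 95% intervals use it with the moderated degrees of freedom. DESeq2 1.42.0 and limma 3.58.1 served as alternatives. The edgeR test was tried on simulated data in which 200 genes were changed. It called 40.8% of the genes changed 2-fold and 97.7% of those changed 4-fold. Gsta2, the tested member farthest from 0, stood at 1.76-fold, so changes of the size seen in members would often be missed. The kept fraction was tried on simulated data too, but accuracy was required only at fractions well above those of the replicate 1 pair. The estimates for that pair are therefore less certain. Each tested member was named, and the 2 genes with the smallest p of each other list. Ugdh, Papss2, Gclc, Nfe2l2, Nqo1, Abcc2, Nr1i3, Nr1i2, Cyp2b1 and Cyp2b2 were named besides. Members and lists were chosen with earlier results of these data known. Promoter sequences are from RefSeq, build GRCr8.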

Additional observations from a re-analysis of the deposited data

How the results depend on the processing

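No member passed the threshold under any alternative run, with 0 members and 0 genes of the other lists called in each. Alternatives were other scaling factors, no gene filter, a minimum count of 20, DESeq2, limma-voom, no robust estimation, unrounded values, counts scaled to equal counting noise, the 10 most abundant genes left out, a replicate block and each library left out. Over all genes, the number called was 1 (0 higher, 1 lower), and it was 5 without a gene filter (1 higher, 4 lower), 2 with DESeq2 (2 lower), 2 with counts scaled to equal counting noise (2 lower), 0 with limma-voom and 0 without robust estimation. With 1 library left out it was 0 to 2 (0 to 2 higher, none lower); a group left with 1 library then borrows the spread of the other. The 2 were called without sleep restriction 2.

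Nothing in the labels ties a replicate number to a shared animal or batch, and the 2 pairs (correlation of deviations 0.206) were treated as unpaired. With a replicate block there were 5 called genes, all 5 lower and none a member, with an adjusted p of 0.236 for Gsta5 and 0.424 for Gsta2.

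The median of the sulfotransferases was 0.10 and moved to 0.18 with a minimum count of 20 and to 0.18 over the 4 rows without a copy at the same place. Of the glucuronosyltransferases only Ugt1a8 (-0.23) and Ugt2b17 (0.35) overlap no other member, so their class median rests largely on rows with shared intervals. With 1 library left out the sulfotransferase median ran from -0.091 to 0.20 and the glucuronosyltransferase median from 0.045 to 0.37. The summed glucuronosyltransferase ratio, 0.33 over all libraries, then ran from 0.16 to 0.47. Of 382 values of single members under alternatives 12 changed sign. Mgst3 was -0.013 with counts scaled to equal counting noise. The others changed sign when a library was left out, with ranges of -0.027 to 0.39 for Ugt2a1, -0.22 to 0.11 for Gsta4, -0.21 to 0.38 for Mgst3, -0.052 to 0.23 for Ugt2b35, -0.20 to 0.38 for Gstm1, -0.087 to 0.82 for Gstt3, -0.070 to 0.24 for Sult1b1, -0.45 to 0.24 for Gstt1, -0.56 to 0.011 for Gstm4 and -0.091 to 0.76 for Sult1c3. The cause was not tested. Gsta5 and Gsta2 stayed positive in each alternative, at 0.53 or above and 0.39 or above. Sult1c2a and Gstm4 had too few counts to be kept with a minimum count of 20.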
